A study of Mus musculus with 96 samples.

Results

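The leukaemia cells described here were 3 cell pools sampled before transplantation, out of 48 sampled pools and mouse tissues in a study of how the cell of origin shapes competition between leukaemic clones. The LSK pool held leukaemia cells that began as LSK, the GMP pool held leukaemia cells that began as GMP, and the mixed pool held both. The pools were chosen by their labels alone, without use of any measured value, and the other 45 columns came from bone marrow and spleen of recipient mice. Donor cells of every pool came from the marrow of female C57BL/6 mice aged 6 to 8 weeks. They were sorted as Lin- c-Kit+ Sca-1+ (LSK) or as Lin- c-Kit+ CD34+ with high Fcγ receptor (GMP). Both were given the MLL-AF9 oncogene by retrovirus, grown with IL-3, IL-6 and SCF, and then labelled by spinfection with SPLINTR DNA barcodes, LSK-derived cells with the GFP library and GMP-derived cells with the mCherry library. Recipients were Ptprca or NSG mice given the LSK pool, the GMP pool or the mixed pool. Each pool had 2 PCR records that the authors collapsed into 1 deposited column, so no spread between replicates can be given, and all comparisons below are descriptions without a test. The labels do not state how many cells each pool held, or when and in what ratio the pools were combined.

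LSK cells are the immature marrow fraction that contains the haematopoietic stem cells, and GMP are committed progenitors of granulocytes and monocytes. MLL-AF9 is a fusion of a histone methyltransferase with a partner from a transcription elongation complex, and it can turn either population into acute myeloid leukaemia in mice. A heritable DNA barcode is copied at every division, so the share of barcode reads follows the share of a founder cell's descendants. A barcode is called a clone here, although a cell that took up more than 1 barcode would count as several clones.

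The columns held 5871935 reads for the LSK pool, 4856030 for the GMP pool and 4257581 for the mixed pool, recovered from the deposited CPM, which are counts per 1000000 barcode reads. The fluorophore labels were borne out by the barcodes. GFP barcodes made up 99.9923% of the LSK pool and mCherry barcodes made up 99.9793% of the GMP pool. In the mixed pool LSK clones held 50.6% of LSK plus GMP reads (95% Wilson interval 50.56% to 50.66%), with 2154753 LSK reads and 2102763 GMP reads. The 2 origins therefore started at almost equal shares of barcode reads. The interval, like the counting intervals of clone ratios below, covers counting error of reads only. Many PCR reads can stem from 1 DNA molecule, and no molecular identifiers were counted.

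To compare a clone with itself, its reads in the mixed pool were expressed per 1000000 reads of its own library, and the same was done in the single-origin pool. This own-library CPM removes the halving that mixing itself brings. Each library had fewer reads in the mixed pool than in its single-origin pool, by 2.72-fold for LSK and 2.31-fold for GMP. Of 1209 LSK clones with reads in the LSK pool, 1107 also had reads in the mixed pool, and of 1050 GMP clones in the GMP pool, 958 did. The 2 compositions of a library, in its single-origin pool and in the mixed pool, overlapped by 95.6% for LSK and 96.0% for GMP. Overlap is the sum over clones of the smaller of both shares.

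The most abundant clones kept their place. GFP_Barcode_13743, the largest clone of the LSK pool, held 2.55% of LSK-library reads alone and 2.47% in the mixed pool. GFP_Barcode_61835 held 2.52% alone and 2.45% mixed, and GFP_Barcode_1207 held 2.06% and 2.03%. The leading 2 clones kept their ranks. GFP_Barcode_7785 went from 2.08% to 1.82% and from rank 3 to rank 4, a ratio of 0.877 (95% counting interval 0.867 to 0.887). GFP_Barcode_3877 went from 1.87% to 1.74% and from rank 5 to rank 6. All 5 leading LSK clones were slightly lower in the mixed pool.

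Among GMP clones the 5 leading ranks were the same in both pools. mCHERRY_2_Barcode_4128 held 3.24% of GMP-library reads alone and 3.30% in the mixed pool. mCHERRY_2_Barcode_626161 held 2.97% and 3.0%, and mCHERRY_2_Barcode_34872 held 1.92% and 2.00%. The ratio of mCHERRY_2_Barcode_626161 was 1.008 with a 95% counting interval of 0.9985 to 1.017, which includes 1, and its log2 ratio of 0.01 became -0.01 when centred on the median clone. mCHERRY_2_Barcode_205626 went from 2.60% to 2.32%, a ratio of 0.891 (95% counting interval 0.882 to 0.901), and mCHERRY_2_Barcode_1204592 went from 2.16% to 2.08%. Beyond these, 9 of the 10 largest LSK clones and 10 of the 10 largest GMP clones were in the top 10 of both pools, with rank shifts of at most 2 and 1. Of the 100 largest, 96 were shared in each library, and of the 300 largest, 285 LSK and 288 GMP clones were shared.

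**Figure D1:**
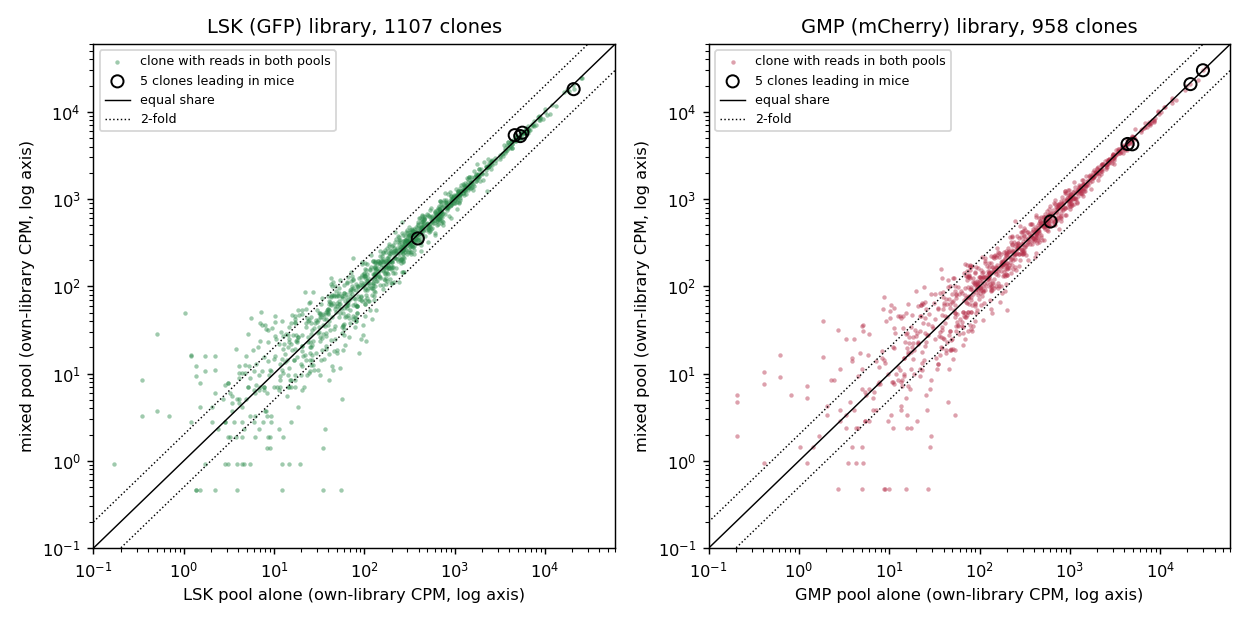
Own-library CPM of each clone in its single-origin pool (x axis, log scale) and in the mixed pool (y axis, log scale), for the 1107 LSK and 958 GMP clones with reads in both; the solid line marks equal share, dotted lines 2-fold, and circles the 5 clones with the highest mean share in mice given that pool alone. Most points above 1000 CPM lie near the line, with GFP_Barcode_2274 (2304 and 1230 CPM) well below it, and points spread out below 100 CPM, and the circled clones lie close to the line.

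Agreement was measured as the log2 ratio of mixed over single-origin share, with 10 CPM added to both. Over clones whose mean of both pools was at least 100 CPM, its median was 0.03 in 676 LSK clones and 0.02 in 619 GMP clones, and its SD across clones was 0.29 and 0.33. Of these clones, 463 LSK (68.5%) and 429 GMP (69.3%) differed by less than 1.2-fold. The clones compared hold 98.5% of LSK and 98.7% of GMP reads of the single-origin pools. Across the same clones the log10 shares correlated with Pearson's r of 0.986 (LSK) and 0.984 (GMP) and Spearman's rho of 0.979 and 0.980. The points of a library share 1 library in each pool and are not independent, so the correlations are given without a p-value.

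The spread narrowed as clones grew. At a mean of 10 to 100 CPM the SD of the log2 ratio was 0.76 in 328 LSK clones and 0.85 in 275 GMP clones. It was 0.34 and 0.39 at 100 to 1000 CPM, 0.15 and 0.15 at 1000 to 10000 CPM, and 0.11 and 0.07 in the 11 LSK and 13 GMP clones at 10000 CPM and over. The share of clones within 1.2-fold rose over the same steps from 25.3% to 57.8%, 91.5% and 100% for LSK, and from 25.1% to 55.9%, 92.4% and 100% for GMP. By these measures both libraries had nearly the same relation between abundance and agreement. Clones past 2-fold were more frequent among GMP clones, at 26.2% against 17.7% of LSK clones at 10 to 100 CPM. At 100 to 1000 CPM they were 2.28% of GMP and 0.645% of LSK clones. The added 10 CPM pulls ratios towards 1 at 10 to 100 CPM, so the spread and the share past 2-fold are understated there. Within the range of 10 to 100 CPM, Pearson's r across clones was only 0.560 for LSK and 0.518 for GMP, against 0.930 and 0.918 at 100 to 1000 CPM.

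In every one of these ranges the spread was larger than random counting of the reads alone would give. Counting gave an SD of 0.07 for LSK and 0.07 for GMP clones at 100 to 1000 CPM, where the measured SD was 4.94 and 5.37 times larger. At 1000 to 10000 CPM the measured SD was 6.05 and 5.51 times the counting SD. At 10000 CPM and over it was 11.6 and 7.73 times larger, over few clones. The counting intervals of single clones below are therefore much narrower than the scatter between the pools. How much of the scatter a second sampling of the same pool would show was not tested, since each pool had 1 column.

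**Figure D2:**
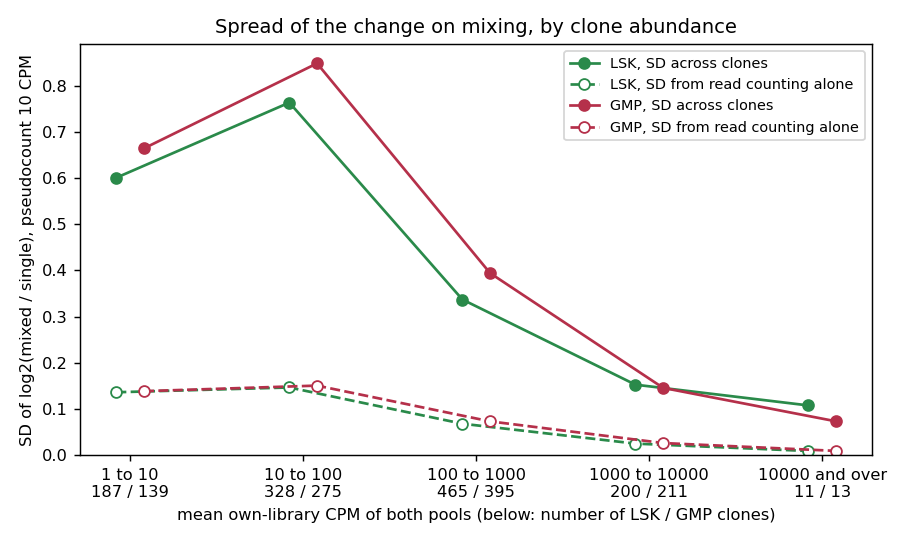
SD across clones of log2 mixed over single-origin share (y axis, filled points and solid lines) by the mean own-library CPM of both pools (x axis, number of LSK and GMP clones beneath), beside the SD expected from read counting alone (open points, dashed lines). The measured SD falls from 0.76 and 0.85 at 10 to 100 CPM to 0.11 and 0.07 at 10000 CPM and over, above the dashed lines throughout. The added 10 CPM compresses the ratio below 10 CPM and, to a lesser degree, at 10 to 100 CPM.

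Few clones at or over 100 CPM moved past 2-fold. In the LSK library 2 clones were over 2-fold higher in the mixed pool (0.296% of those compared) and 1 was over 2-fold lower (0.148%). In the GMP library 6 were higher (0.969%) and 3 were lower (0.485%). These 12 clones lay between 118 and 406 CPM in the mean of both pools, and they held 0.0580% (LSK) and 0.118% (GMP) of the reads of their single-origin pools. None of them was among the abundant clones.

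GFP_Barcode_42491 moved furthest among LSK clones, from 436 reads (0.00743% of the LSK pool) to 457 reads (0.0212% of LSK reads in the mixed pool), a ratio of 2.86 (95% counting interval 2.50 to 3.26). GFP_Barcode_95120 was next, from 0.0264% to 0.0548%, and GFP_Barcode_1482 went from 0.00940% to 0.0192%, which is 2.04-fold without and under 2-fold with the added 10 CPM. In the other direction GFP_Barcode_8080 went from 0.0242% to 0.0113%, a ratio of 0.468 (0.409 to 0.536). GFP_Barcode_2274 stood out by its size, since it fell from 0.230% to 0.123% and from rank 105 to rank 179 on 13525 and 2650 reads. GFP_Barcode_94430 went from 0.0275% to 0.0146%.

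Among GMP clones mCHERRY_2_Barcode_467972 had the largest change of the clones compared in either library, from 970 reads (0.0200%) to 112 reads (0.00533%), a ratio of 0.267 (0.219 to 0.324). mCHERRY_2_Barcode_157324 went from 0.0169% to 0.00666% and mCHERRY_2_Barcode_920630 from 0.0192% to 0.00889%. In the other direction mCHERRY_2_Barcode_500529 went from 0.00696% to 0.0183%, a ratio of 2.62 (2.27 to 3.04). mCHERRY_2_Barcode_26043 went from 0.0245% to 0.0566% and mCHERRY_2_Barcode_457790 from 0.00719% to 0.0175%. All 6 started below 0.03% of the GMP pool.

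**Figure D3:**
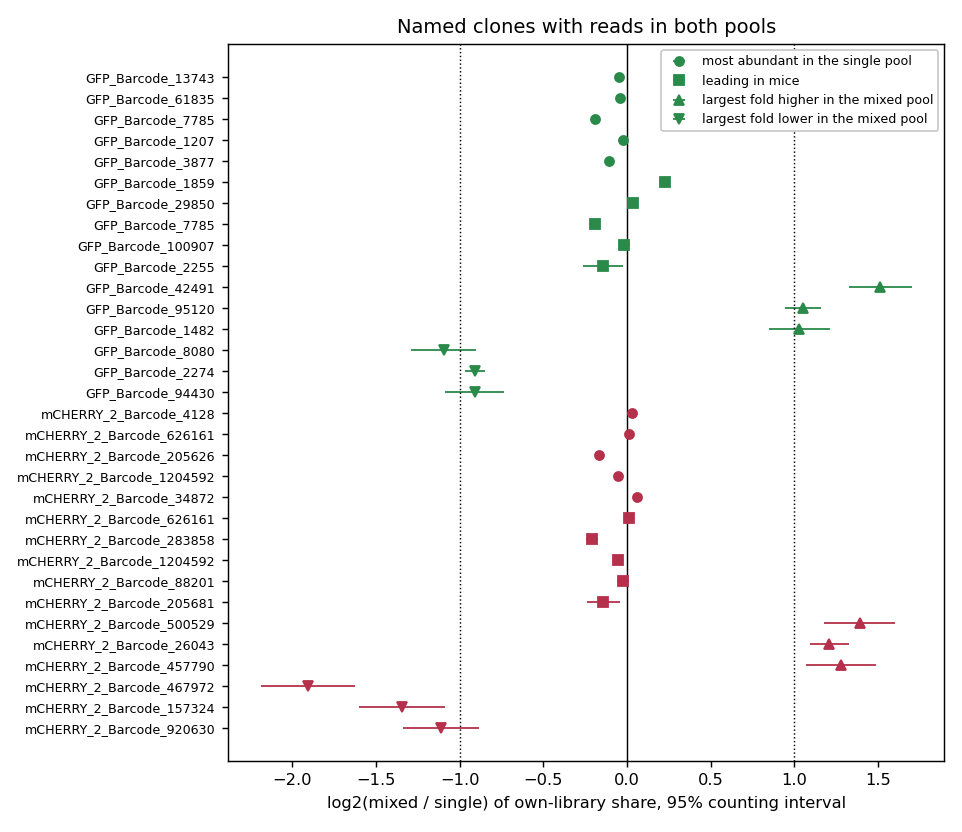
Log2 ratio of own-library share, mixed over single-origin pool and without an added CPM (x axis), of the named clones with reads in both pools; green is LSK, red is GMP, bars are 95% counting intervals and dotted lines mark 2-fold. The most abundant clones (circles) and those leading in mice (squares) lie between -0.21 and 0.23, and the clones chosen for their change (triangles) lie outside that range.

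Clones absent from the mixed pool were, in these pools, rare clones of their single-origin pool. Of the LSK clones, 102 of 1209 (8.44%, 95% Wilson interval 7.0% to 10.1%) had 0 reads in the mixed pool, and of the GMP clones 92 of 1050 (8.76%, 7.20% to 10.6%) did. These clones had held 0.0522% of LSK-pool reads and 0.0427% of GMP-pool reads. Wilson intervals of absence, and upper limits given for 0 clones, treat clones as independent draws. The clones of a library share the same columns and are not independent, so these ranges are descriptive. At 100 CPM and over 0 of 679 LSK clones and 0 of 607 GMP clones were absent, which allows a share of up to 0.442% and 0.494%. Absence was thus common by number of clones and almost without weight by number of reads.

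By abundance in the single-origin pool, 17 of 23 LSK clones under 1 CPM were absent from the mixed pool, 72 of 182 (39.6%) at 1 to 10 CPM, and 13 of 325 (4.0%) at 10 to 100 CPM. For GMP clones the counts were 24 of 33, 57 of 126 (45.2%) and 11 of 284 (3.87%). Counting alone at the depth of the mixed pool would have left 12.9 LSK clones and 18.3 GMP clones without reads, nearly all of them under 1 CPM. At 1 to 10 CPM it would have left 1.71 LSK and 1.504 GMP clones, against the 72 and 57 measured. Thinned to the depth of the mixed pool, the single-origin pools would have shown 1199 LSK and 1035 GMP clones, while the mixed pool showed 1126 and 989.

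The largest absent LSK clone, GFP_Barcode_36732, had 130 reads in the LSK pool, or 22.1 CPM, and 0 of the LSK reads of the mixed pool. Against a floor of 3 reads in that pool it was at least 15.9-fold lower. GFP_Barcode_9067 with 129 reads and GFP_Barcode_108891 with 127 reads followed closely. Among GMP clones mCHERRY_2_Barcode_26478 had 163 reads in the GMP pool, or 33.6 CPM, and was at least 23.5-fold lower in the mixed pool. mCHERRY_2_Barcode_41499 had 122 reads and mCHERRY_2_Barcode_560578 had 95. None of these 6 clones had reads in any mouse library that received its pool.

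The reverse case was rarer, and in that direction the depth rose. Of 1126 LSK clones in the mixed pool, 19 (1.69%) had 0 reads in the deeper LSK pool, against 0.582 from counting alone. Of 989 GMP clones, 31 (3.13%) had 0 reads in the GMP pool, against 0.971 from counting. The largest were GFP_Barcode_104652 with 35 reads (16.2 CPM, at least 31.8-fold higher than the 3-read floor of the LSK pool) and mCHERRY_2_Barcode_235482 with 56 reads (26.6 CPM, at least 43.1-fold higher). GFP_Barcode_22534 had 30 reads, GFP_Barcode_13445 had 23, mCHERRY_2_Barcode_420194 had 48 and mCHERRY_2_Barcode_451067 had 44. Rare clones were thus missing on both sides of the comparison, and more often from the shallower mixed pool.

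**Figure D4:**
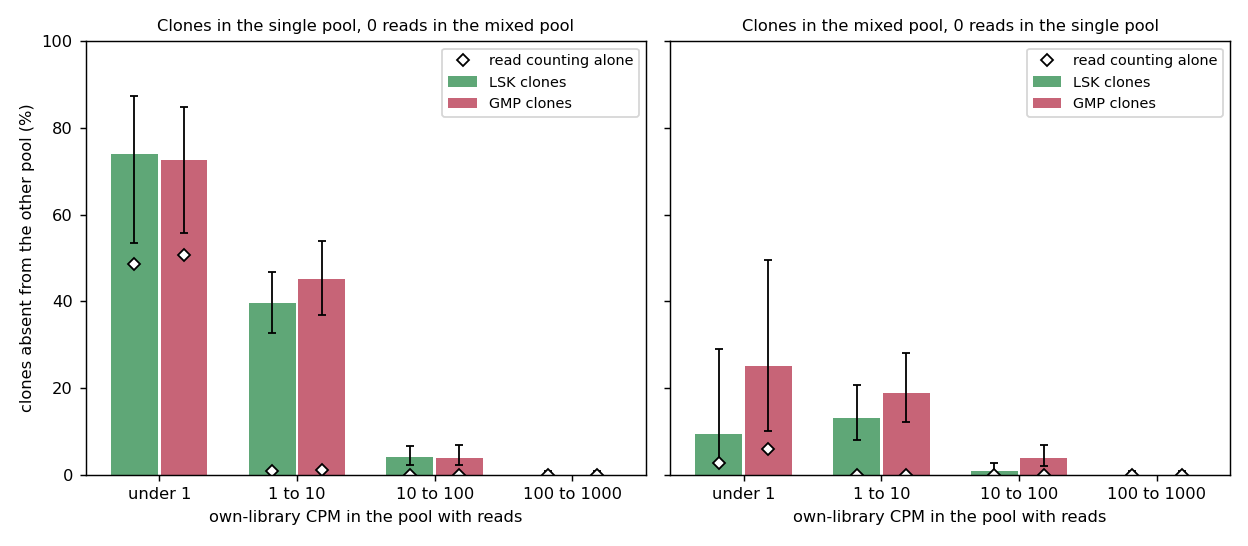
Share of LSK and GMP clones absent from the other pool (y axis, %) by own-library CPM where they had reads (x axis). Bars are measured shares with 95% Wilson intervals that treat clones as independent draws. Diamonds mark the share expected from read counting alone. Absence from the mixed pool falls from 73.9% and 72.7% under 1 CPM to 4.0% and 3.87% at 10 to 100 CPM and 0 above, and it is higher than the diamonds wherever clones were absent.

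The shape of each pool changed little. The LSK pool had 296 effective clones, the exponential of the Shannon entropy of its clone shares, which counts clones as if all were of 1 size, and its part of the mixed pool had 307. For GMP the numbers were 269 and 273. The 10 largest clones held 18.1% of the LSK pool and 17.4% of its mixed part, and 20.4% and 19.9% for GMP. The number of clones that held 50% of the reads went from 58 to 61 for LSK and from 56 to 57 for GMP. Each of these measures differed towards a slightly more even mixed part, by a few percent of its value. There was no replicate to set these differences against.

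The 2 origins were alike in shape. The largest clone held 2.55% (LSK) and 3.24% (GMP) of its pool, and 334 LSK clones and 297 GMP clones held 90% of reads. At the same rank the mixed share stood at 0.913 to 1.07 times the single-origin share across ranks 1, 10, 30, 100, 300, 600 and 900 of both libraries. The curves parted from each other at the rare end, where the mixed pool ran out of clones first. Over all clones with reads, the ratio of the 90th to the 10th percentile of clone size went from 386 to 261 for LSK. For GMP it went from 538 to 285. The median clone with reads went from 143 to 187 CPM for LSK and from 156 to 187 CPM for GMP. The mixed pool had fewer clones in these measures, 1126 against 1209 for LSK and 989 against 1050 for GMP.

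**Figure D5:**
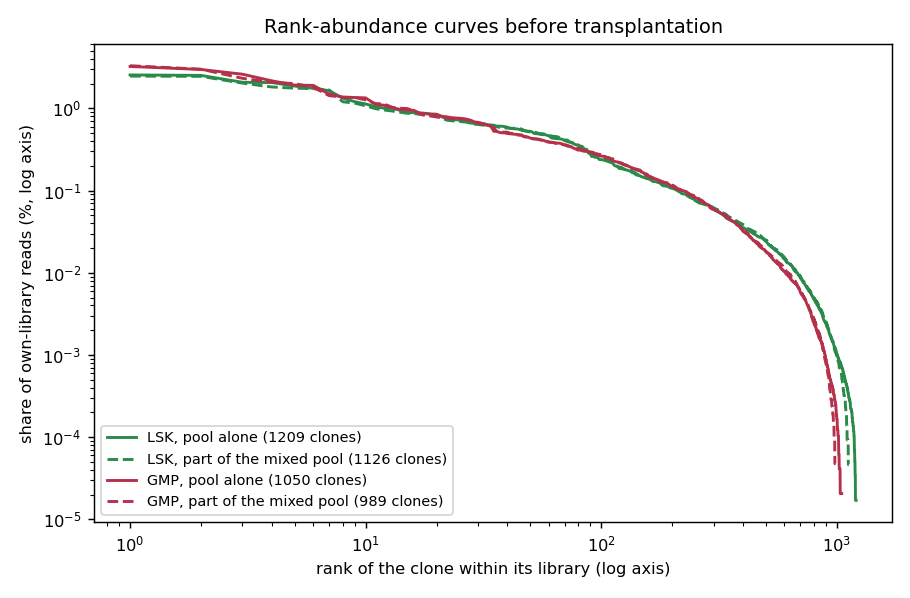
Share of own-library reads (y axis, %, log scale) by rank of the clone (x axis, log scale) for the LSK and GMP pools alone (solid) and for their parts of the mixed pool (dashed). Solid and dashed lines overlie each other down to rank 600 and end at 1209 and 1126 clones for LSK and 1050 and 989 for GMP.

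The mixed pool as a whole was close to the sum of the single-origin pools. It had 579 effective clones, against 564 when the LSK and GMP pools were joined by computation at the measured share. Its 10 largest clones were 5 LSK and 5 GMP clones with 11.6% of the reads, against 11.98% in the joined pools. Of its 100 largest clones 57 were LSK and 43 were GMP, and 118 clones made up 50% of its reads. The composition of the mixed pool overlapped with the joined pools by 95.8%.

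The differences between pools can be set beside those that arose in mice. In 7 mice given the LSK pool alone, the mean of marrow and spleen overlapped with the LSK pool by 6.27% to 15.4% (median 7.46%). In 8 mice given the GMP pool alone the overlap with the GMP pool was 11.99% to 17.2% (median 15.2%). Pairs of mice of the same host overlapped with each other by 72.7% to 87.6% (9 LSK pairs) and 79.9% to 91.1% (12 GMP pairs). Mouse compositions were thus far from the pool given and close to each other, while single-origin and mixed pools overlapped by more than 95%.

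The 5 clones with the highest mean share in LSK mice summed to 80.4% there, to 3.68% of the LSK pool and to 3.503% of LSK reads in the mixed pool. GFP_Barcode_1859 held 0.462% and 0.541% of the 2 pools and 15.8% to 42.2% (median 25.7%, 7 mice) of LSK reads in mice. GFP_Barcode_29850 held 0.563% and 0.577% in the pools and 5.78% to 31.1% (median 18.7%) in mice. GFP_Barcode_7785, at rank 3 in the LSK pool, held 10.3% to 26.9% (median 14.3%). GFP_Barcode_100907 held 0.533% and 0.528% in the pools, and GFP_Barcode_2255, at rank 382 of the LSK pool, held 0.0391% and 0.0354%. Only 1 of these 5 was among the 5 largest clones of the LSK pool, and GFP_Barcode_13743, the largest, held at most 0.0534% in those mice.

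In GMP mice the 5 leading clones summed to 78.8%, from 6.13% of the GMP pool and 5.99% of GMP reads in the mixed pool. mCHERRY_2_Barcode_626161, at rank 2 in both pools, held 26.2% to 33.5% (median 28.4%, 8 mice). mCHERRY_2_Barcode_283858 held 0.491% and 0.425% in the pools, at ranks 41 and 53, and 25.7% to 30.6% (median 28.1%) in mice. These 2 clones led in the GMP mice by a wide margin. mCHERRY_2_Barcode_1204592, at rank 4 in both pools, held 6.92% to 16.5% (median 9.39%). mCHERRY_2_Barcode_88201 held 0.436% and 0.428% in the pools, and mCHERRY_2_Barcode_205681 held 0.0611% and 0.0555%. In both libraries all 5 leading clones were within 1.2-fold between the pools.

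Whether a clone's ratio between the pools moved with its ratio between mixed and single-origin recipients was described over clones with a mean of at least 0.01% in both kinds of mice. Pearson's r was -0.09 and Spearman's rho -0.01 over 75 LSK clones, and 0.09 and 0.08 over 54 GMP clones. The SD of the log2 ratio across these clones was 0.17 between pools in both libraries, and 1.18 (LSK) and 1.01 (GMP) between mice. The clones share the same mice and pools, and no p-value is given. Means over mice pooled Ptprca and NSG hosts, whose balance differed between LSK mice and mixed recipients. The part of host in the ratio between mice was not tested.

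Clones seen in both pools accounted for nearly all pool clones found in mice. Of the 1107 LSK clones of both pools, 524 had reads in at least 1 of 14 libraries of LSK mice, and 329 reached 10 CPM. Of the 958 GMP clones of both pools, 770 had reads in at least 1 of 16 libraries of GMP mice and 294 reached 10 CPM. The GMP count rests on the bone marrow library of Ptprca mouse 8, which had reads of 752 of these clones against 58 to 214 in the other 15 libraries. Without it the count was 410. Of clones seen in the single-origin pool but not in the mixed pool, 2 of 102 LSK and 9 of 92 GMP clones (5 without that library) had reads in mice given that pool, at no more than 33.4 and 28.5 CPM. Of clones seen only in the mixed pool, 0 of 19 LSK and 0 of 31 GMP clones had reads in mice of the single origin, which allows shares of up to 15.8% and 9.68%. In mixed recipients 1 of 19 and 1 of 31 had reads, at 6.80 and 1.15 CPM or less.

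Clones absent from the mixed pool were also rarer to begin with, so presence in mice was compared at 10 to 100 CPM of the single-origin pool. There 52 of 312 LSK clones that the mixed pool kept (16.7%) had reads in LSK mice, against 1 of 13 that it did not. For GMP clones 157 of 273 kept clones did (57.5%, or 39 and 14.3% without the library of mouse 8), against 1 of 11. In mixed recipients the LSK clones were alike, with reads of 25 of 312 kept clones (8.01%) and 1 of 13 absent clones (7.69%). For GMP clones these counts were 38 of 273 (13.9%) and 0 of 11. The kept clones were still larger within this range, with medians of 38.8 against 12.9 CPM for LSK and 43.5 against 15.9 CPM for GMP. The part of abundance in the difference seen in single-origin mice was not tested.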

How the data were processed

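Barcodes were counted from genomic DNA per the labels, whose extraction protocol describes a droplet preparation instead. The deposited values are CPM, which the authors filtered, collapsed over PCR duplicates and scaled to 1000000 per column, per the labels and the values. How the duplicates were collapsed is not given in the sources used here. Bowtie 1.2.2 and R 3.6 are listed in the submitters' processing notes, with no settings. The 3 pool columns were the same in both deposited tables (largest difference 0). All values there were whole multiples of 1 step within 0.01 of a read, and the step was taken as 1 read.

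Libraries were read from barcode names (1331 GFP, 3078 mCherry and 266 BFP barcodes listed), and a barcode missing from a table was taken as 0. Ratios used clones with a mean of at least 100 own-library CPM and a pseudocount of 10 CPM. Counting SDs and expected absences treated reads as Poisson draws. In mice, marrow and spleen were averaged within each mouse, and a mixed NSG recipient without a marrow column entered by its spleen alone. Python 3.11.15, numpy 2.4.6 and pandas 2.3.3 were used, and the computations were tested on simulated data. Members and lists were chosen with earlier results of these data known.

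Clones were named by rule in each library: the 5 most abundant in the single-origin pool, the 3 largest ratios in each direction, the 3 most abundant that were absent from 1 pool, and the 5 with the highest mean share in mice given that pool alone.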

Additional observations from a re-analysis of the deposited data

Results flagged for a closer look

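Reads of barcodes outside a pool's own library were present at low levels. GMP barcodes made up 20.9 CPM of the LSK pool (13 barcodes, 123 reads), and all 13 had reads in the GMP pool. LSK barcodes made up 137 CPM of the GMP pool (37 barcodes, 663 reads), and 31 of them had reads in the LSK pool. Barcodes with a BFP name, a library that no sample label mentions, made up 56.0 CPM of the LSK pool (11 barcodes), 70.2 CPM of the GMP pool (7) and 15.3 CPM of the mixed pool (3).

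Some listed barcodes had reads in mice but in neither the single-origin nor the mixed pool. The authors' filtered list spans pool and mouse columns together, and the rule of the filter is not given. Where a barcode had no reads in the pools, its place on the list rests on other columns. The counts below thus depend on how the list was made, and no rate is drawn from them. Of 103 LSK barcodes without reads in the LSK and mixed pools, 39 had reads in LSK mice, at up to 40.4 CPM. In mixed recipients 41 of them had reads, at up to 34.9 CPM. Of 1997 GMP barcodes without reads in the GMP and mixed pools, 1136 had reads in GMP mice, at up to 179 CPM. In mixed recipients 881 of them had reads, at up to 555 CPM. The spleen library of Ptprca mouse 7 alone held 896 of the 1136, against 5 to 73 in the other GMP-mouse libraries, and 266 were left without it. The spleen library of Ptprca mouse 18 held 535 of the 881 in mixed recipients, and 422 were left without it.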

How the results depend on the processing

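No paired analysis was possible because each pool has 1 collapsed column and no result comes from a test.

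The spread and the count past 2-fold depended on how rare the clones compared were. With a minimum of 10 CPM, the SD was 0.50 (LSK) and 0.54 (GMP) and 61 and 81 clones passed 2-fold. With any reads in both pools these were 0.49 and 0.52, and 65 and 79. At 1000 CPM they were 0.15 and 0.14, and 0 and 0. A scaled median absolute deviation, chosen after seeing the data, gave 0.22 for GMP. With the minimum on the single-origin pool alone 6 LSK clones passed. A pseudocount of 1 CPM gave 5 and 14 clones, and one of 100 CPM gave 0 and 0. A limit of 1.5-fold gave 42 and 50 clones, and 3-fold gave 0 and 1. With CPM as deposited, which holds the halving by mixing, 231 and 278 passed.

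Absent clones with at least 10 CPM in the single-origin pool numbered 13 (LSK) and 11 (GMP), and with at least 100 CPM 0 and 0. The inverse Simpson index, which weights large clones more, was 150 and 159 for the LSK pool and its mixed part, 132 and 134 for GMP, and 292 for the mixed pool. The LSK share from median clone ratios was 50.7%. Including other libraries' barcodes could not be applied to the parts of the mixed pool. The other 24 of 58 alternative values stayed within 1.5-fold or the interval. Of 164 alternative values for the 41 named clones, 84 stayed within the counting interval and 80 moved by more. No named clone past 2-fold changed direction. Named clones under 2-fold could change sign, such as GFP_Barcode_1859, whose log2 ratio of 0.23 became -0.75 with CPM as deposited. Without replicate pools, no difference can be set against sampling error.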
